A study of Mus musculus with 6 samples.

Results

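The 9 genes described here encode surface and granule proteins of megakaryocytes and platelets. They are the integrin alpha chain Itga2b, the von Willebrand factor receptor subunits Gp1ba, Gp1bb, Gp5 and Gp9, their ligand Vwf, the granule chemokines Pf4 and Ppbp, and the granule receptor Treml1. The genes were taken by name from the 36083 genes with a value per library, and all 9 were among the 12155 genes that were tested.

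The samples were lineage-negative cells of blast crisis chronic myelogenous leukemia (Lin- bcCML), a mouse model of the aggressive phase of a leukemia driven by the BCR-ABL fusion. Stem and progenitor cells (KLS cells, c-Kit+ Lin- Sca1+) from WT or Sdc1-/- donor mice were infected with retroviruses carrying BCR-ABL and NUP98-HOXA9. Cells positive for both reporters were sorted and transplanted, and the labels name NSG mice, which lack lymphocytes, as hosts. Leukemic cells were later sorted from the spleen, and the labels give no age. Each group had 3 libraries, and both groups carried both oncogenes. The sort removed cells with T, B, myeloid or erythroid surface antigens, and its antibody list, as the methods give it, held none against a product of the 9 genes. The Sdc1-/- allele is a disruption in the sequence coding for the signal peptide of syndecan-1, a cell surface heparan sulfate proteoglycan.

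Megakaryocytes arise from progenitors shared with erythroid cells and release platelets. Their identity is built by GATA, ETS and RUNX transcription factors and by the cytokine thrombopoietin. Platelets stick to damaged vessels when the GPIb-IX-V complex binds von Willebrand factor, aggregate when the integrin formed by Itga2b and Itgb3 binds fibrinogen, and release chemokines from alpha-granules. Several of these genes, among them Itga2b, Pf4 and Vwf, are also known to be active in early hematopoietic progenitors.

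All values are TPM, a level per transcript length scaled to a fixed library total, that the authors had then rescaled between libraries, and they are called rescaled TPM here. Levels of different genes can be compared on this scale. Fold changes are log2 differences of value + 1 from limma with Benjamini-Hochberg adjustment over all tested genes, and a gene was called at an adjusted p below 0.05. The pseudocount of 1 understates the change of low genes. Whether the libraries of a group came from separate mice is not given in the labels, and the study's text speaks of technical replicates for WT, so the SDs and p-values may measure technical spread alone.

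Sdc1 itself was checked first. It measured 1.75, 1.21 and 1.51 in WT against 3.85, 3.80 and 4.12 in the libraries labelled Sdc1-/-, so the targeted gene's mRNA was higher where the label says it was disrupted (log2 fold change 0.99, SE 0.093, limma adjusted p = 1.2e-04). Whether the disrupted allele leaves a transcript was not tested, nor was the assignment of the labels. The groups are therefore named by their labels in every direction given here. The summed level of 4 Y-linked genes, a list chosen after values were seen, was 0.28 to 0.31 in WT and 68.1 to 78.4 in the other group, so the sex of the cells and the genotype cannot be told apart. Correlations of log2 values across genes ran from 0.993 to 0.996 within groups and from 0.968 to 0.972 between them. No library stood apart from its group.

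The DNA just upstream of several member genes held the core letters that GATA factors recognise. RefSeq promoters on GRCm38.p6, from 250 bases before to 50 bases after the transcript start, were at hand for 8 of the 9 genes, all but Vwf. The letters GATAA, searched on both strands, occurred in 4 of these 8 and in 25.4% of 32851 promoters of all genes. The windows of 30 bases are shown because they let the sites of 3 receptor subunits be set beside that of Pf4. No match was held by the promoters of Itga2b, Gp1bb and Ppbp, which were lower under the Sdc1-/- label, or of Treml1, which was higher. Capitals mark GATAA or, where the match is on the opposite strand, TTATC.
Gp1ba, chr11:70639007-70639036, plus strand: gtgcagagagctGATAAgagcctttgcccg
Gp9, chr6:87778015-87778044, plus strand: ctgtctttagggGATAAgccaggctatttt
Gp5, chr16:30310841-30310870, minus strand: ctggtaaggtctTTATCttgaggatgcaag
Pf4, chr5:90772455-90772484, plus strand: actgggcaggcagtgaaGATAAaacgtgct

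The capitals began 103 bases before the start in Gp1ba, 43 bases before it in Gp9 and 77 bases before it in Gp5. Gp1ba held another match 51 bases before the start, and Gp5 another 93 bases before it, which are not shown. In Pf4 they began at base 38 of the transcript. The ETS core GGAAG, with CTTCC on the opposite strand, occurred in 8 of the 8 promoters, but also in 71.4% of all promoters. The match closest to the start is shown for Pf4 and Ppbp, neighbouring chemokine genes whose levels moved in opposite directions. A match of Itga2b is shown because the promoter of this gene held no GATAA, and it is not the only one there. Capitals mark the chosen match alone, and the windows of Ppbp and Itga2b each hold another match in lower case.
Pf4, chr5:90772414-90772443, plus strand: ttctgcagagcaCTTCCtcatcctgtatcc
Ppbp, chr5:90768456-90768485, plus strand: cactcacttcccCTTCCccacctcttcggc
Itga2b, chr11:102469908-102469937, minus strand: ctttcctggagaGGAAGgggaagcagtgac

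The RUNX letters TGTGGT, again on both strands, were found in the Gp9 promoter only among the 8, and in 16.8% of all promoters. GATAA and GGAAG together were held by 4 of the 8 promoters and by 17.2% of all. Neighbouring matches to different motifs can share 1 base. These matches describe letters in a fixed window and were not tested as binding sites.

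Across the 9 genes, 3 rose in the libraries labelled Sdc1-/- and 6 fell. Vwf, Treml1 and Pf4 were higher, and Itga2b, Ppbp, Gp1ba, Gp1bb, Gp5 and Gp9 were lower. All 9 were called, where 60.7% of all tested genes were called, 29.3% as higher and 31.3% as lower. In all 9 the values of the groups did not overlap, as in 66.7% of all tested genes, so neither count sets the 9 genes apart from a background in which most genes differ. With 3 libraries against 3, the exact permutation test cannot give a two-sided p below 0.1, and it gave 0.1 for each gene. The median log2 fold change was -0.26 over the 9 genes and -0.0097 over all tested genes. RNA from bulk cells cannot tell fewer cells of a type from less RNA per cell.

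**Figure D1:**
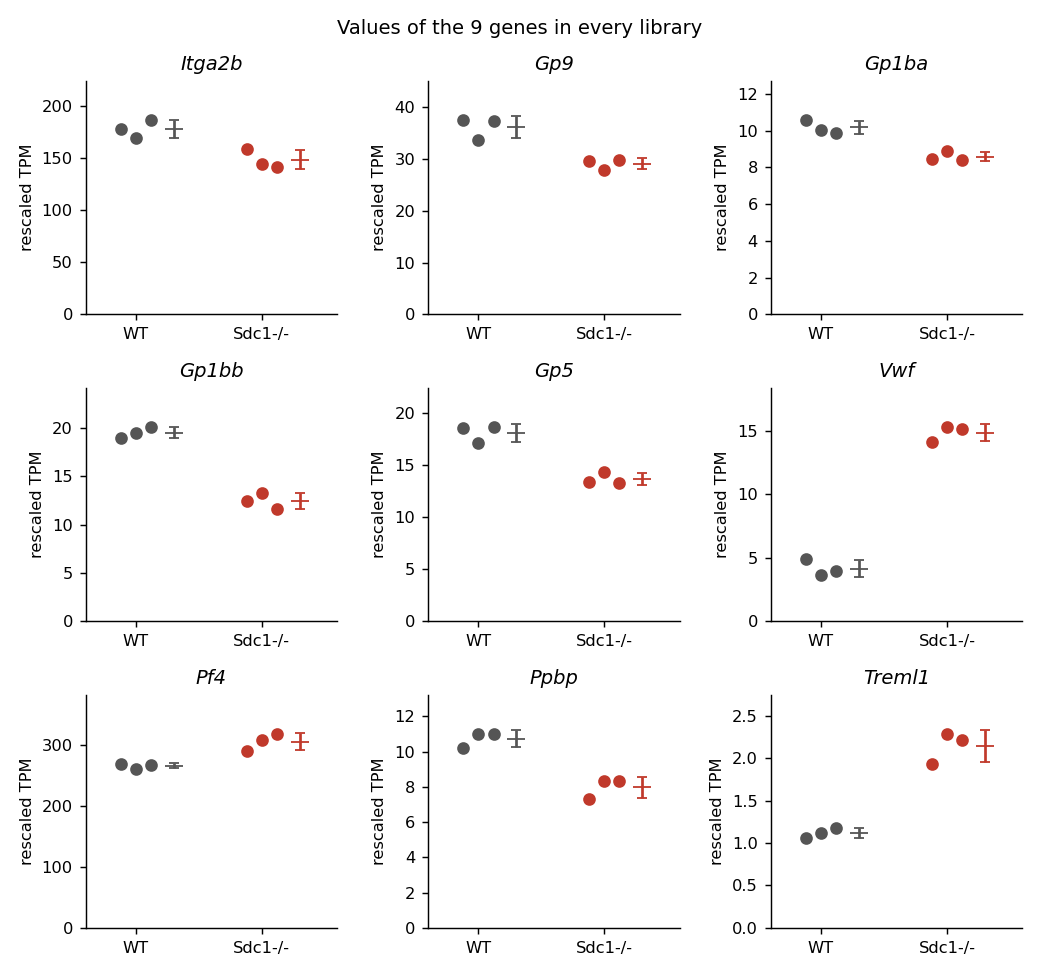
Rescaled TPM of each of the 9 genes in the 3 WT libraries (grey) and the 3 libraries labelled Sdc1-/- (red), with the group mean and SD beside the points and every axis starting at 0. The groups are separate in every panel, and Vwf shows the widest gap relative to its axis, from a mean of 4.14 to one of 14.8.

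The balance between rises and falls depends on how the libraries are scaled. With each library set to a sum of 1000000, the median of all tested genes moved to a log2 fold change of 0.12, and the share of falls among all called genes moved from 51.7% to 30.9%. Of 12150 genes tested under this scaling, 5290 were called as higher and 2367 as lower. Counts of the gene lists given below under this scaling stand beside these. Under this scaling, 7 of the 9 genes were called, 3 as higher and 4 as lower. Itga2b and Gp1ba were no longer called, and no member changed direction.

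**Figure D2:**
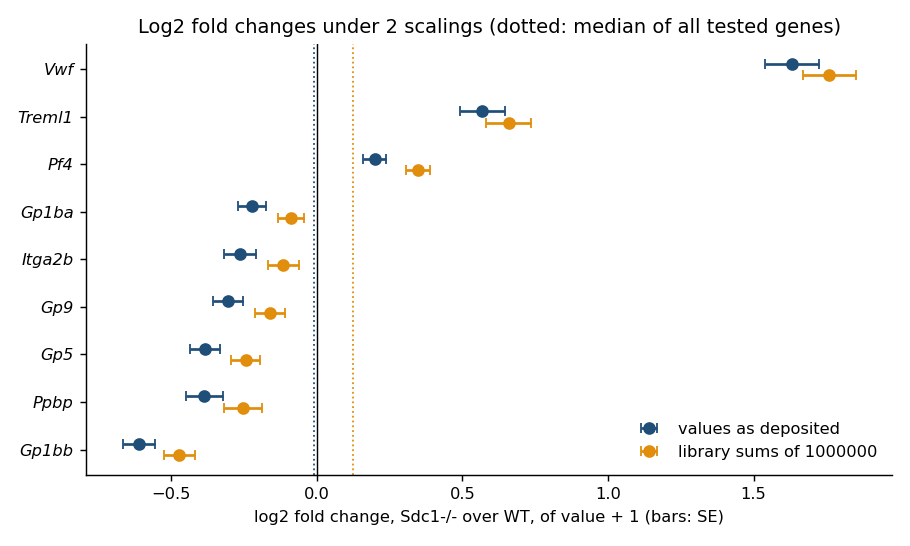
Log2 fold change of value + 1 for the 9 genes, libraries labelled Sdc1-/- over WT, with bars of 1 SE, from the values as deposited (blue) and with library sums of 1000000 (orange). Dotted lines mark the median of all tested genes, -0.0097 and 0.12, and every gene lies on the same side of 0 under both scalings.

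Itga2b, the alpha chain of the fibrinogen receptor (ENSMUSG00000034664, GRCm38 chr11:102453297-102470122, minus strand), had the second highest level of the 9. WT libraries gave 179, 170.1 and 187, and those with the Sdc1-/- label gave 159, 145 and 142. The lowest WT value lay above the highest of the other group. The mean fell by 16.8%, from 179 ± 8.47 to 149 ± 9.02 (SD, n = 3 each; log2 fold change -0.26, SE 0.054, limma adjusted p = 0.0046).

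Itgb3, the beta chain that pairs with Itga2b and also with the vitronectin receptor's alpha chain, fell further. Its level went from 67.8 ± 0.27 to 42.2 ± 0.15 (log2 fold change -0.67, limma adjusted p = 3.4e-06). The ratio of Itga2b to Itgb3 in the same library, which multiplying a library by a constant cannot change, was 2.64, 2.50 and 2.76 in WT. It was 3.75, 3.44 and 3.37 in the other group. The alpha chain thus stood higher against the beta chain in every library labelled Sdc1-/-. The ratios were chosen after the values were seen.

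Gp9, the small subunit needed to carry the receptor complex to the surface (ENSMUSG00000030054, chr6:87778072-87779768, plus strand), was the most abundant of the 4 subunit genes. It reached 37.6, 33.8 and 37.4 in WT but 29.6, 27.9 and 29.8 with the Sdc1-/- label. The groups were apart by more than the spread within either of them. The mean fell from 36.3 ± 2.15 to 29.1 ± 1.07 (log2 fold change -0.31, SE 0.053, limma adjusted p = 0.0020).

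Gp1ba encodes the subunit that binds von Willebrand factor (ENSMUSG00000050675, chr11:70639122-70642036, plus strand). Levels were 10.6, 10.1 and 9.90 in WT and 8.45, 8.88 and 8.42 under the Sdc1-/- label. These are close, but no value of one group reached the other. The fall was the smallest among the 6 genes that fell, from 10.2 ± 0.36 to 8.58 ± 0.25 (log2 fold change -0.22, SE 0.047, limma adjusted p = 0.0052).

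Gp5, which is cleaved from platelets by thrombin (ENSMUSG00000047953, chr16:30307685-30310779, minus strand), stood at 18.5, 17.1 and 18.7 in WT. In the libraries labelled Sdc1-/- it stood at 13.4, 14.3 and 13.3, all below WT. Its mean went from 18.1 ± 0.86 to 13.6 ± 0.56 (log2 fold change -0.38, SE 0.051, limma adjusted p = 5.9e-04).

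Gp1bb, the subunit that is disulfide-linked to Gp1ba (ENSMUSG00000050761, chr16:18620317-18622403, minus strand), showed the largest fall of the 9. WT values were 19.0, 19.5 and 20.1, and those under the Sdc1-/- label were 12.4, 13.3 and 11.6. The lowest WT value exceeded the highest of the other libraries by more than either group's range. The log2 fold change was -0.61 (SE 0.055, limma adjusted p = 9.5e-05).

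The value of Gp1bb is uncertain because of a neighbour on the same strand. In GENCODE M21, 1938 of its 2087 exon bases lie in exons of Sept5, a septin gene, or of Gm49601, a gene model that reaches across both. Of the 2086 words of 31 bases in its transcripts, 1908 (91.5%) also occur in transcripts of those genes, so reads can be split among them. Sept5 fell from 8.36 ± 0.80 to 3.24 ± 0.63 (log2 fold change -1.15, limma adjusted p = 1.6e-04) and Gm49601 from 2.90 ± 0.40 to 1.63 ± 0.47 (log2 fold change -0.58, limma adjusted p = 0.013). Gp1ba, Gp5, Gp9, Pf4, Ppbp and Treml1 shared 0 words with other genes, Itga2b 0.37% and Vwf 1.31% of theirs.

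Ratios between receptor subunits overlapped between the groups for some pairs and not for others. The ratio of Gp9 to Gp1ba was 3.55, 3.36 and 3.78 in WT and 3.51, 3.14 and 3.54 in the other group, and the groups overlapped (exact permutation p = 0.4, two-sided). Gp9 to Gp5 overlapped too, at 2.03, 1.98 and 2.01 against 2.22, 1.95 and 2.25 (exact permutation p = 0.4). The ratios to Gp1bb, whose own value is uncertain, did not overlap: Gp9 to Gp1bb went from 1.86 ± 0.12 to 2.35 ± 0.23 and Gp1ba to Gp1bb from 0.52 ± 0.034 to 0.69 ± 0.029. Gp1ba to Gp5 also moved without overlap, from 0.56 ± 0.030 to 0.63 ± 0.0070. The exact permutation p was 0.1, the smallest possible, for each of these ratios without overlap. With 3 libraries against 3, an overlap does not show that proportions were equal.

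Vwf encodes von Willebrand factor, the large adhesive ligand of this receptor, which megakaryocytes and endothelial cells make (ENSMUSG00000001930, chr6:125546774-125686679, plus strand). WT values were 4.87, 3.60 and 3.96, whereas the libraries labelled Sdc1-/- gave 14.1, 15.3 and 15.1. The highest WT value was far below the lowest of the other group, although WT libraries varied among themselves with a coefficient of variation of 15.9%. The mean rose 3.58-fold, from 4.14 ± 0.66 to 14.8 ± 0.66 (log2 fold change 1.63, SE 0.093, limma adjusted p = 1.2e-05). Among the 12155 tested genes, 34 (0.28%) had a log2 fold change at least as high, Vwf included, and 1.91% were called with a rise of at least 2-fold on this scale.

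On the deposited scale, ligand and receptor moved in opposite directions. The ratio of Vwf to Gp1ba was 0.46, 0.36 and 0.40 in WT and 1.67, 1.73 and 1.80 under the Sdc1-/- label. Vwf was below the receptor subunit in every WT library and above it in every other one.

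Markers of endothelial cells, the other main source of Vwf, were checked as a list of 10 genes, of which 4 passed the minimum mean. Cdh5, Kdr and Cldn5 had group means of at most 0.03 in both groups, and the groups overlapped. Tek, a receptor of the same cells, was also below the minimum mean, at 0.089 ± 0.015 in WT and 0.36 ± 0.12 in the other group, and its groups did not overlap. Emcn stood at 0.21 ± 0.082 and 0.40 ± 0.20, with overlap, and Flt1 at 0.27 ± 0.034 and 0.19 ± 0.032, lower without overlap. Of the 4 tested markers, Tie1 rose from 0.94 ± 0.16 to 4.24 ± 0.19 and Plvap from 4.43 ± 0.40 to 7.23 ± 0.27, while Egfl7 fell from 130.4 ± 11.3 to 92.0 ± 5.23 and Eng from 25.6 ± 0.54 to 20.4 ± 0.25. The summed level of the 10 was 150.1 to 175 in WT and 118 to 128 in the other group, and Egfl7 made up most of it. Without Egfl7, a sum added after the values were seen, the other 9 came to 30.3 to 32.53 in WT and 32.55 to 33.5 in the other group, so the direction of the sum turned. The part of endothelial cells in the rise of Vwf was not tested.

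Pf4, platelet factor 4, a heparin-binding chemokine (ENSMUSG00000029373, chr5:90772435-90773383, plus strand), had the highest level of the 9 in every library. Values of 269, 261 and 267 in WT stood against 290.0, 308 and 319 with the Sdc1-/- label. The WT libraries lay close together, and the lowest of the other group was above all of them. The mean rose by 14.9%, from 266 ± 4.14 to 305 ± 14.4 (log2 fold change 0.20, SE 0.040, limma adjusted p = 0.0042).

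Ppbp, the precursor of the neutrophil-attracting chemokine NAP-2, lies on the same strand with 2371 bases between its end and the start of Pf4 (ENSMUSG00000029372, chr5:90768518-90770063). It went the other way, with 10.2, 11.002 and 11.031 in WT and 7.30, 8.35 and 8.31 under the Sdc1-/- label. All 3 of the latter were below WT. The mean fell from 10.7 ± 0.47 to 7.99 ± 0.59 (log2 fold change -0.39, SE 0.063, limma adjusted p = 0.0016).

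Although the genes are neighbours, Pf4 was far more abundant, and more so in the libraries labelled Sdc1-/-. The ratio of Pf4 to Ppbp was 26.4, 23.7 and 24.2 in WT and 39.7, 36.8 and 38.3 in the other group. The chemokine genes Cxcl1, Cxcl2, Cxcl3, Cxcl5 and Cxcl15 of the same cluster were under 1 in all libraries, with a summed level of 0.63 to 0.99 in WT and 0.29 to 0.53 in the other group.

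**Figure D3:**
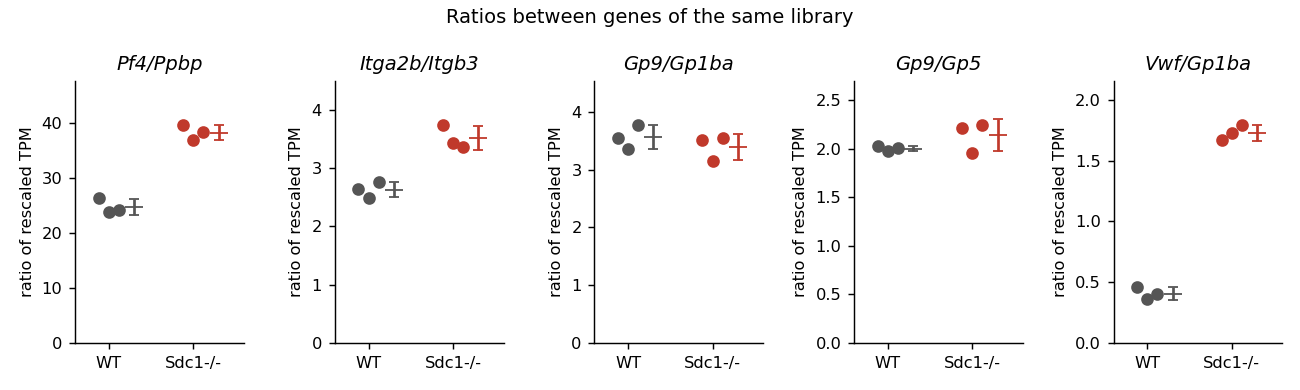
Ratios of rescaled TPM between 2 genes of the same library, in WT (grey) and in libraries labelled Sdc1-/- (red), with mean and SD and axes starting at 0. Pf4/Ppbp, Itga2b/Itgb3 and Vwf/Gp1ba are separate between the groups, while Gp9/Gp1ba and Gp9/Gp5 overlap.

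Treml1 encodes TLT-1, a receptor stored in granules that binds fibrinogen once exposed (ENSMUSG00000023993, chr17:48359916-48367176, plus strand). It had the lowest level of the 9, with 1.06, 1.12 and 1.18 in WT against 1.93, 2.29 and 2.21 under the Sdc1-/- label. No WT value came near the other group. The mean rose 1.92-fold, from 1.12 ± 0.060 to 2.14 ± 0.19 (log2 fold change 0.57, SE 0.077, limma adjusted p = 6.8e-04), and at a minimum mean of 5 the gene was not tested.

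Genes of the same TREM receptor cluster did not move as one. Treml2 rose from 26.3 ± 0.23 to 31.01 ± 0.86. Trem1, a receptor of neutrophils and monocytes, fell from 3.61 ± 0.036 to 1.39 ± 0.10, and Trem3 from 18.3 ± 1.27 to 9.23 ± 0.41. Trem2 and Treml4, below the minimum mean, were also lower without overlap. They went from 0.71 ± 0.052 to 0.096 ± 0.049 and from 0.31 ± 0.084 to 0.13 ± 0.029.

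The order of levels in WT was Pf4, Itga2b, Gp9, Gp1bb, Gp5, Ppbp, Gp1ba, Vwf and Treml1, and the ranges of Ppbp and Gp1ba overlapped. Under the Sdc1-/- label Vwf stood just below Gp9, where its range overlapped that of Gp5 and the range of Gp5 overlapped that of Gp1bb. Ppbp then stood below Gp1ba. The summed level of the 9 genes was 527 to 556 in WT and 536 to 549 in the other group, so the sums overlapped. Pf4 made up 48.0% to 49.5% of it in WT and 54.1% to 58.0% in the other group.

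The gene whose pattern was most like that of Pf4 over the 6 libraries, among 8958 genes with a mean of at least 5, was Dcun1d2 (Pearson r of log2 values 0.999), followed by Atxn2 (0.995) and Cep55 (0.993). With a group difference in most genes, such likeness is common: 1237 genes had an r of at least 0.9. The 6 points share the groups, so no test is given.

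Among 18 other platelet surface receptors, 13 were tested, of which 5 rose, 7 fell and 1 was not called (median log2 fold change -0.10). Counts of this and the following lists stand beside 29.3% of all tested genes called as higher and 31.3% as lower. With library sums of 1000000, 6 rose and 4 fell. Pear1, a contact receptor, rose from 2.06 ± 0.39 to 4.55 ± 0.091, and Tbxa2r, the thromboxane receptor, from 2.80 ± 0.056 to 5.20 ± 0.33. Cd84, an adhesion receptor of the SLAM family, fell from 47.2 ± 0.74 to 26.8 ± 0.28, and Clec1b, the podoplanin receptor, from 5.47 ± 0.70 to 3.27 ± 0.40.

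Cd9, an abundant tetraspanin of platelets, stood at 144 ± 5.57 in WT and 153 ± 1.15 in the other group and was not called (limma adjusted p = 0.068). It was called as higher with quantile normalization and with library sums of 1000000. Several receptors that mark mature platelets were below the minimum mean. The collagen receptor Gp6 had means of 0.16 and 0.13, the integrin chain Itga2 0.30 and 0.18, and the ADP receptor P2ry12 0.13 and 0.030, in WT and in the other group. Itga2 and P2ry12 were lower without overlap, and the groups of Gp6 overlapped. Esam and Jam3, also below the minimum mean, had higher means in the other group. Esam went from 0.21 ± 0.11 to 1.59 ± 0.069 without overlap, and Jam3 from 0.36 ± 0.11 to 0.60 ± 0.19 with overlap.

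Other granule proteins moved in both directions. Of 15 listed, 10 were tested, 3 rose, 5 fell and 2 were not called (median log2 fold change -0.11), against 4 rises and 4 falls with library sums of 1000000. F13a1, the fibrin-crosslinking factor XIII subunit, fell from 6.84 ± 0.24 to 1.38 ± 0.048 and Thbs1, thrombospondin, from 6.86 ± 0.078 to 2.21 ± 0.089 (log2 fold changes -1.72 and -1.29). Srgn, the granule proteoglycan serglycin that many myeloid cells make, fell from 2089 ± 38.1 to 1331 ± 27.2.

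Clu, clusterin, rose from 13.8 ± 0.81 to 25.6 ± 1.36 and Tgfb1 from 159 ± 5.48 to 199.9 ± 10.3. Coagulation factor F5 fell from 1.30 ± 0.022 to 0.92 ± 0.013 (limma adjusted p = 0.015, and 0.052 with library sums of 1000000). Selp, P-selectin, stood at 2.23 ± 0.22 and 2.34 ± 0.45 and was not called (limma adjusted p = 0.74).

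All 19 genes of granule formation and release were tested. Of these, 3 rose, 9 fell and 7 were not called (median log2 fold change -0.13), while library sums of 1000000 gave 6 rises and 3 falls. Nbeal2, whose loss empties alpha-granules, rose from 9.10 ± 0.26 to 16.2 ± 0.52, and Vps16 rose from 45.4 ± 1.80 to 82.1 ± 2.58. Stx11, a syntaxin of granule release, fell from 11.3 ± 1.78 to 6.23 ± 0.66, Rab38 from 183 ± 2.92 to 123 ± 1.82, and Rab27b, a small GTPase of dense granules, from 7.94 ± 0.65 to 5.91 ± 0.25.

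**Figure D4:**
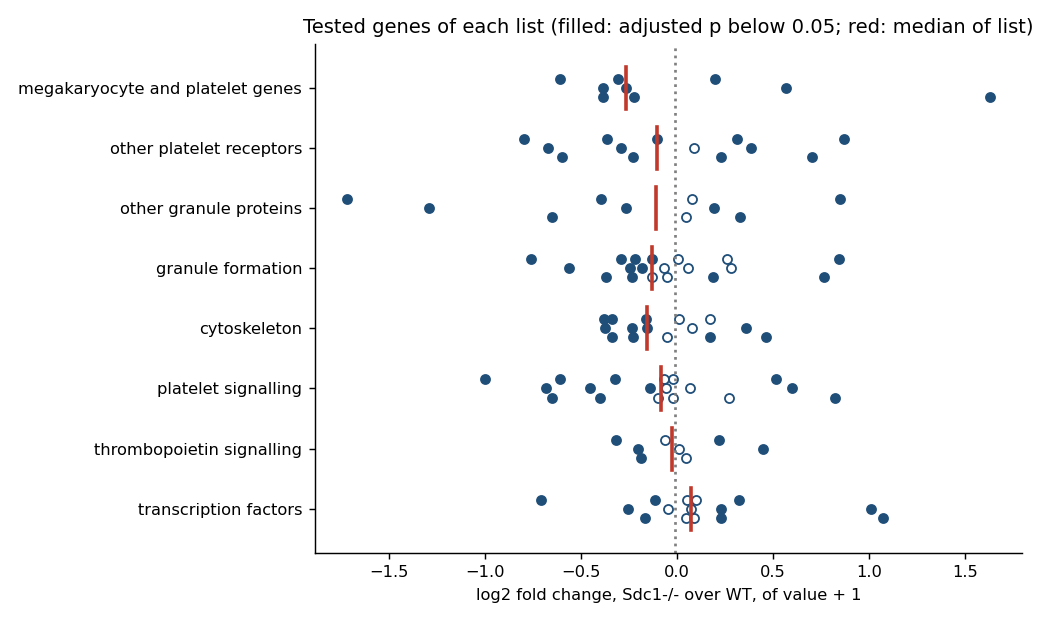
Log2 fold change of value + 1 for the tested genes of 8 lists, libraries labelled Sdc1-/- over WT, with filled points for an adjusted p below 0.05, a red bar at the median of each list and a dotted line at the median of all tested genes. Every list has rises and falls, and the rightmost point of the top row is Vwf at 1.63.

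The cytoskeleton list, drawn from genes of proplatelet formation, had 17 genes, and most are active in many cell types. Of 15 tested, 3 rose, 8 fell and 4 were not called (median log2 fold change -0.16). The counts became 6 and 4 with library sums of 1000000 and 6 and 5 with quantile normalization. Over all 12155 tested genes, quantile normalization gave 3768 rises and 3454 falls. Myh9, non-muscle myosin, rose from 54.2 ± 2.03 to 75.1 ± 3.11 and Wasl from 2.28 ± 0.14 to 3.22 ± 0.20. Zyx, zyxin, fell from 96.7 ± 7.71 to 74.2 ± 1.77 and Myl9 from 1.33 ± 0.20 to 0.81 ± 0.29 (limma adjusted p = 0.048, a call lost under 11 of the alternatives). Tubb1, the beta-tubulin of platelets, was near 0, at 0.098 ± 0.054 and 0.12 ± 0.024.

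Of 20 genes of platelet signalling, 18 were tested, 3 rose, 8 fell and 7 were not called (median log2 fold change -0.085). Scaling to sums of 1000000 gave 7 rises and 7 falls. Mylk, myosin light chain kinase, rose from 2.59 ± 0.32 to 5.38 ± 1.10 and the kinase Fyn from 19.2 ± 2.34 to 29.5 ± 1.06. Gnaq, a G protein subunit downstream of thromboxane and ADP receptors, fell from 3.81 ± 0.68 to 1.39 ± 0.18 and the kinase Lyn from 54.8 ± 0.99 to 33.7 ± 0.21.

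Thpo, which encodes thrombopoietin, was listed at 0 in all libraries. Of 8 tested genes on the list of 10 for thrombopoietin signalling, 2 rose, 3 fell and 3 were not called, and with library sums of 1000000, 5 rose and 1 fell. Tyk2 rose from 15.2 ± 0.40 to 21.1 ± 0.56 and Stat5a from 25.9 ± 0.62 to 30.3 ± 0.55, whereas the kinase Jak2 fell from 19.2 ± 0.85 to 15.2 ± 0.82 and Stat5b from 22.7 ± 0.38 to 19.6 ± 0.25. The call of Stat5b was lost with library sums of 1000000 (limma adjusted p = 0.16).

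Transcription factors of megakaryocytes were all tested, and 5 of 15 rose, 4 fell and 6 were not called (median log2 fold change 0.074). Library sums of 1000000 gave 10 rises and 2 falls, beside 5290 and 2367 among 12150 tested genes. Quantile normalization gave 6 and 3, beside 3768 and 3454 among 12155. Meis1, a homeobox factor of stem cells and megakaryocytes, rose from 13.1 ± 0.35 to 28.6 ± 1.08. Ets1 fell from 9.07 ± 0.83 to 5.16 ± 0.20 and Nfe2, a driver of platelet release, from 157 ± 1.46 to 131 ± 2.36.

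Of the factors known to drive the member genes, several were not called. Gata1 stood at 78.4 ± 1.80 and 82.6 ± 0.74 (limma adjusted p = 0.070), Gata2 at 161 ± 11.7 and 166 ± 5.01 (adjusted p = 0.44), and Runx1 at 12.98 ± 1.84 and 12.5 ± 0.35 (adjusted p = 0.69), and none of them was called. Fli1, an ETS factor, was lower, at 13.9 ± 0.25 and 12.2 ± 0.25 (limma adjusted p = 0.0080), as was Gfi1b, at 64.6 ± 1.79 and 59.5 ± 1.89 (adjusted p = 0.031). The call of Gfi1b was lost under 7 alternatives. With library sums of 1000000 neither was called, Gfi1b and Runx1 turned to a rise that was not called, and Gata1 and Gata2 were called as higher. Gata1 was also called as higher with quantile normalization (log2 fold change 0.14, limma adjusted p = 0.0069).

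Markers of other blood cells moved with the groups. Of all tested genes, 31.3% were called as lower and 29.3% as higher. All 10 neutrophil markers fell, and their summed level went from 12670 to 13620 in WT to 4591 to 4734 in the other group. Of mast cell and basophil markers, 7 of 7 tested fell (summed level 629 to 647 against 210 to 218 over 9 genes), and of macrophage markers, 6 of 7 tested (61.0 to 66.3 against 25.5 to 27.8 over 10 genes). Erythroid markers summed to 11085 to 11769 in WT and 6474 to 6869 in the other group, with 8 of 12 lower and 3 higher. T and B cell markers, 6 genes, were all under 1. The part of these shifts in the levels of the 9 genes was not tested.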

How the data were processed

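RNA-seq was measured in Lin- bcCML cells, with 3 libraries per group, grouped by the labels. The authors quantified reads with kallisto and tested groups with sleuth 0.30.0 on mm10, per the labels (submitters' processing notes, which give no kallisto version). The authors deposited a signal per gene and library, TPM rescaled between libraries (library sums 944973 to 1058263). Read depth is unknown and no counting interval can be given. A second deposited table, the authors' own comparison (p-values, q-values and effect sizes), was not used.

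Genes whose 6 values averaged 1 or more were fitted with limma 3.58.1 (R 4.3.3) on log2(value + 1), with a term for group alone, eBayes with a variance trend, and Benjamini-Hochberg adjustment at 0.05. The design assumed plain TPM, and the test was kept for the rescaled values. Single values were compared with exact permutation tests (scipy 1.17.1, Python 3.11.15). The script was tested on simulated data. Alternatives changed the pseudocount, minimum mean, scaling, variance trend, replicate block and libraries used.

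The members and lists were chosen with earlier results of these data known. Named were the 9 members, a set list of partners and regulators, the 2 largest called rises and falls of each list, and the 3 genes most like the most abundant member. Some genes that this rule names are not reported here. Markers, genes given to show a list's low members and Gm49601 are named besides. Positions and shared words came from GENCODE M21 on GRCm38, in which 35454 of 36083 identifiers occur, and promoters from RefSeq (GRCm38.p6).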

Additional observations from a re-analysis of the deposited data

How the results depend on the processing

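The 9 members kept their direction under all 14 alternatives that tested them, and their calls under all but library sums of 1000000, where Itga2b (log2 fold change -0.12, limma adjusted p = 0.094) and Gp1ba (-0.089, adjusted p = 0.13) were not called, and a minimum mean of 5, where Treml1 was not tested. Vwf ranged from 1.55 to 1.83, Treml1 from 0.53 to 0.88, Pf4 from 0.17 to 0.35 and Gp1bb from -0.66 to -0.47. Leaving out 1 library at a time gave 6475 to 6962 called genes and 9 called members each time. The other genes followed this way were the partners, regulators and list genes named above, without the markers and the genes most like Pf4. Among them, 5 values changed sign, none of them called there: Runx1 (main -0.044) with library sums of 1000000 (0.093) and without WT replicate 1 (0.061, against -0.10 to 0.061 over all libraries left out in turn), Gfi1b (main -0.12) with library sums of 1000000 (0.029), Selp (main 0.046) without Sdc1-/- replicate 3 (-0.056), and Gata2 (main 0.054) without WT replicate 2 (-0.0067). The cause was not tested. Replicate numbers did not pair the libraries (correlations of deviations at equal numbers 0.15, -0.0083 and 0.018), and with a replicate block 7624 genes and 9 members were called. Unknown depth, 3 libraries per group and possible technical replication limit all values.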

Other observations

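Markers of stem and progenitor cells were mostly higher in the libraries labelled Sdc1-/-. Of 9 listed, 8 were tested, 6 rose and 2 fell (median log2 fold change 0.30, beside -0.0097 for all tested genes). With library sums of 1000000, 6 rose and 1 fell (median 0.42), beside 5290 and 2367 among 12150 tested genes. Among all tested genes, 29.3% were called as higher and 31.3% as lower. Hlf, below the minimum mean, was lower without overlap, at 0.15 ± 0.029 in WT and 0.051 ± 0.0092 in the other group. Slamf1, the SLAM family receptor of long-term stem cells, rose from 6.43 ± 0.050 to 11.5 ± 0.69, Mecom, a zinc finger factor that stem cells need, from 5.18 ± 0.19 to 8.24 ± 0.36, and Procr, the endothelial protein C receptor, from 0.78 ± 0.079 to 1.80 ± 0.16. Flt3, a receptor of lymphoid-primed progenitors, fell from 13.2 ± 0.51 to 7.71 ± 0.31 and Cd34 from 47.4 ± 2.06 to 39.9 ± 0.71.

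Erythroid markers moved in both directions. The globin Hbb-bt fell from 3409.8 ± 137 to 2006 ± 61.3, Alas2, the first enzyme of heme synthesis in red cells, from 26.3 ± 0.56 to 12.5 ± 0.44, and Slc4a1, the anion exchanger, from 16.2 ± 0.23 to 8.01 ± 0.67. Klf1, an early erythroid transcription factor, rose from 49.1 ± 3.22 to 56.8 ± 1.18 and Ermap from 24.7 ± 0.71 to 32.5 ± 0.73.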
